A study of Sorghum bicolor with 14 samples.

Results

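The subject is 4 genes of the C4 carbon fixation pathway, followed from the unpollinated pistil to the 30-day seed of Sorghum bicolor M35-1, a field-grown cultivar. They were chosen by gene ID, as C4 phosphoenolpyruvate (PEP) carboxylase (Sobic.010G160700), pyruvate phosphate dikinase or PPDK (Sobic.009G132900), NADP-malic enzyme (Sobic.003G036200) and NADP-malate dehydrogenase (Sobic.007G166300). All 4 IDs were present among the 31337 genes measured. The deposited file and the reference table pair these IDs with no enzyme names, so the names rest on the selection by ID and could not be checked against an annotation.

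RNA was sequenced from pistils taken 1 to 2 days before pollination (1-2 DBP), from material taken 0 to 2 days after pollination (0-2 DAP), and from seeds at 10, 20 and 30 DAP. The labels name pistil as the source and seed as the tissue of the 0-2 DAP samples. There were 3 libraries per stage, but 2 at 30 DAP, 14 in all, and no genotype or treatment other than the stage sets the groups apart. The authors deposited 1 value per gene and stage as TPM, a share of transcripts corrected for gene length that adds up to 1000000 in each column. With 1 value per stage there is no replicate error, no test and no p-value for any difference given here, and it cannot be said which neighbouring stages differ beyond the spread of their libraries. The number of reads behind each value is unknown.

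C4 photosynthesis concentrates carbon dioxide around Rubisco by dividing the work between 2 leaf cell types. In mesophyll cells PEP carboxylase adds bicarbonate to PEP to give oxaloacetate, and NADP-malate dehydrogenase reduces oxaloacetate to malate. In bundle sheath cells NADP-malic enzyme splits malate into pyruvate and carbon dioxide, which Rubisco fixes, and the pyruvate returns to the mesophyll, where PPDK turns it back into PEP. Sorghum belongs to the NADP-malic enzyme type of C4 plants. PPDK is also known as an abundant protein of the developing endosperm, the storage tissue of the grain, in maize and rice.

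The 4 genes did not share a course over the stages. The C4 PEP carboxylase gene stayed below 1 TPM at every stage and the NADP-malic enzyme gene below 3 TPM. The NADP-malate dehydrogenase gene was highest at 0-2 DAP and lower at each later stage. The PPDK gene was scarce in the pistil and among the most abundant transcripts of the seed at 10 DAP. Together the 4 took 0.00375% of all TPM in the unpollinated pistil and 0.00719% at 0-2 DAP, then 0.125%, 0.0331% and 0.000481% in the seed at 10, 20 and 30 DAP. NADP-malate dehydrogenase made up 89.0% of their sum at 1-2 DBP, 83.4% at 0-2 DAP and 67.9% at 30 DAP, whereas PPDK made up 97.5% at 10 DAP and 96.6% at 20 DAP.

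**Figure D1:**
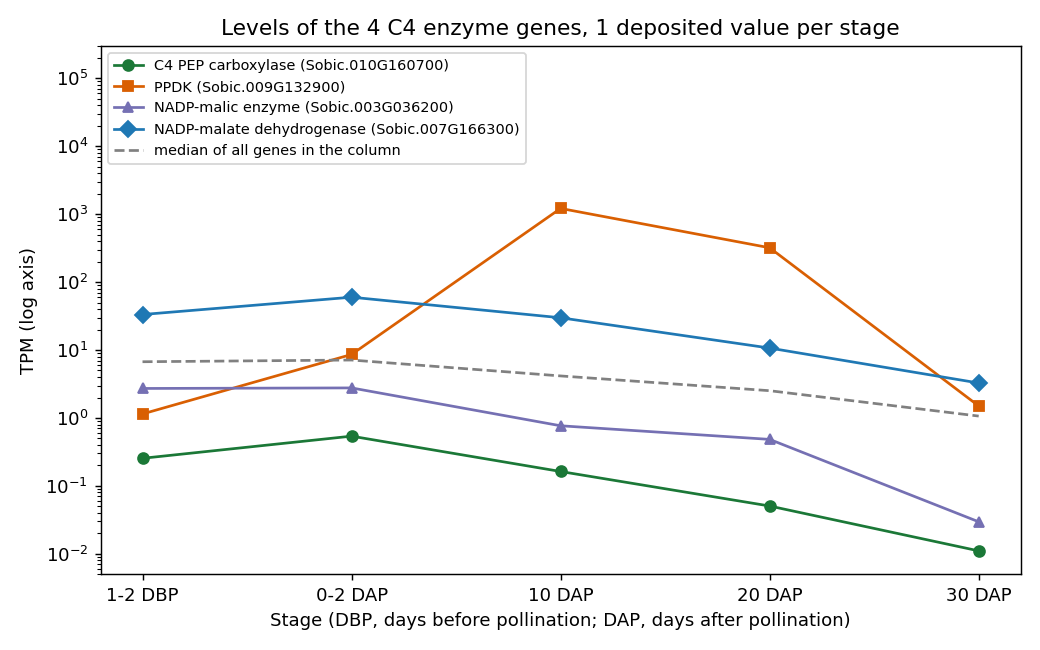
TPM (log axis) of the 4 genes at each of the 5 stages, 1 deposited value per stage without error bars; the dashed line is the median of all genes in the column. PPDK peaks at 1216 TPM at 10 DAP, while the C4 PEP carboxylase gene lies below the median gene at all 5 stages.

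The first step of the pathway belongs to the C4 PEP carboxylase gene, Sobic.010G160700. Its level was 0.255 TPM in the unpollinated pistil and 0.539 TPM at 0-2 DAP, and 0.163, 0.0505 and 0.0110 TPM in the seed at 10, 20 and 30 DAP. The value at 0-2 DAP was the highest and the value at 30 DAP the lowest. No stage was listed at 0, but with unknown depth values this small may rest on few reads. Among all genes it stood at the 24.1st, 26.1st, 22.1st, 18.0th and 22.5th percentile from 1-2 DBP to 30 DAP. The percentile at 30 DAP lies just above the genes listed at 0, which number 6744 there against 1902 at 1-2 DBP. Since it never reached 1 TPM, this gene did not pass the filter of 1 TPM in at least 1 stage and was not among the 24404 genes compared between stages.

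The malate-forming step belongs to NADP-malate dehydrogenase, Sobic.007G166300, which in leaves is a chloroplast enzyme switched on by light through thioredoxin. Its level was 33.3 TPM in the unpollinated pistil, 59.9 TPM at 0-2 DAP, and 29.9, 10.7 and 3.27 TPM in the seed at 10, 20 and 30 DAP. It was the highest of the 4 genes at 1-2 DBP, at 0-2 DAP and at 30 DAP, and it was above the median gene of its column at all 5 stages. Its rank in the column was the 78.4th, 89.0th, 86.0th, 75.2nd and 64.6th percentile from 1-2 DBP to 30 DAP. The highest value was 18.3 times the lowest as deposited and 3.99 times after median-ratio scaling, which divides each column by a factor that centres the bulk of genes.

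The decarboxylating step belongs to NADP-malic enzyme, Sobic.003G036200. Its level was 2.72 TPM in the unpollinated pistil, 2.77 TPM at 0-2 DAP, and 0.767, 0.483 and 0.0296 TPM in the seed at 10, 20 and 30 DAP. Both early values lay close together and all 3 seed values from 10 DAP on were below 1 TPM. It stayed below the median gene throughout, at the 40.0th, 38.8th, 31.6th, 32.0th and 25.0th percentile from 1-2 DBP to 30 DAP.

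The PEP-regenerating step belongs to PPDK, Sobic.009G132900. Its level was 1.15 TPM in the unpollinated pistil, 8.61 TPM at 0-2 DAP, and 1216, 320.2 and 1.50 TPM in the seed at 10, 20 and 30 DAP. The values at 10 and 20 DAP stood far above the other 3, and the value at 10 DAP was 1062 times that at 1-2 DBP as deposited, 1937 times after median-ratio scaling and 1691 times under quantile normalization. It ranked 68th of 31337 genes at 10 DAP and 258th at 20 DAP, against 20907th at 1-2 DBP, 14804th at 0-2 DAP and 14409th at 30 DAP. At 10 DAP this 1 gene took 0.122% of all TPM, which was 293 times the level of the median gene. On the log2(TPM + 1) scale its range over the stages was 9.15, against a median range of 2.38 over the 24404 genes, and 99.1% of those genes had a smaller range.

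**Figure D2:**
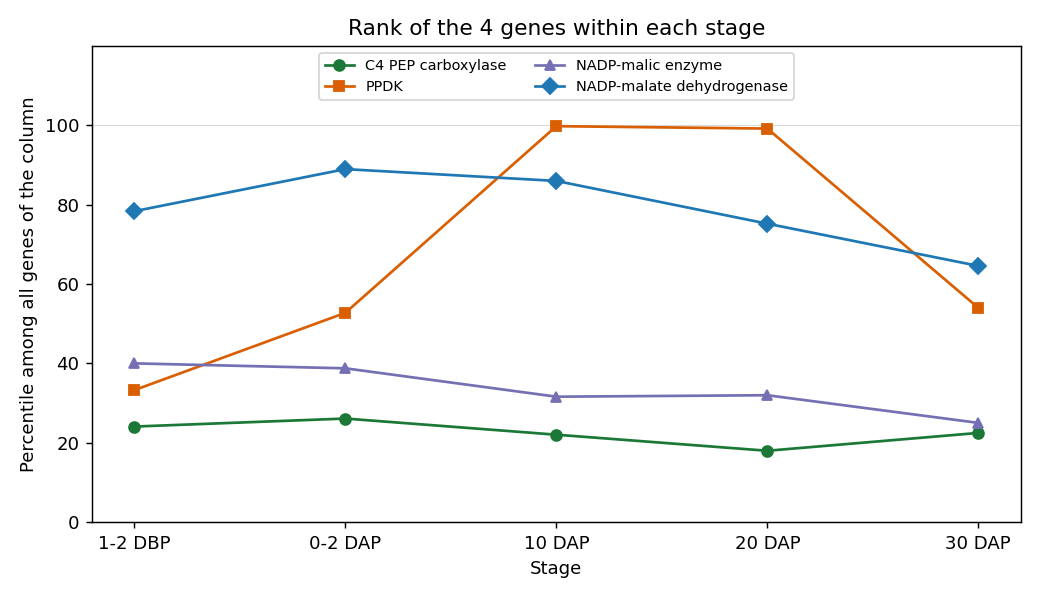
Percentile of each gene among all 31337 genes of the column (100 is the most abundant), by stage; each point is 1 deposited column. PPDK moves between the 33.3rd percentile at 1-2 DBP and the 99.8th at 10 DAP, while the C4 PEP carboxylase gene stays between the 18.0th and the 26.1st.

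Ratios between the genes within a column are unchanged when a column is divided by a factor, as in median-ratio scaling, but quantile normalization changes them. PPDK transcripts were 0.0344, 0.144, 40.7, 30.0 and 0.459 times as abundant as NADP-malate dehydrogenase transcripts in the 5 columns from 1-2 DBP to 30 DAP. The order of these 2 genes thus turned between 0-2 and 10 DAP and turned back between 20 and 30 DAP. PPDK exceeded the C4 PEP carboxylase gene 4.50 times at 1-2 DBP and 7470 times at 10 DAP. NADP-malate dehydrogenase exceeded the C4 PEP carboxylase gene at all 5 stages, by 111 times at 0-2 DAP at the least and 296 times at 30 DAP at the most. After quantile normalization this ratio was 97.4, 138, 214, 225 and 62.1 from 1-2 DBP to 30 DAP, so that 30 DAP had the smallest in place of the largest. PPDK was above NADP-malate dehydrogenase at 10 and 20 DAP and below it at the other 3 stages under quantile normalization too.

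The order of the stages was 0-2 DAP, 1-2 DBP, 10 DAP, 20 DAP and 30 DAP, from highest to lowest, for the C4 PEP carboxylase, NADP-malic enzyme and NADP-malate dehydrogenase genes. This order was common, being that of 5538 of the 24404 genes, or 22.7%. It depends on the scaling. After median-ratio scaling NADP-malate dehydrogenase had scaled values of 17.7, 31.7, 28.9, 15.9 and 7.95 from 1-2 DBP to 30 DAP, so that 10 DAP stood above 1-2 DBP. The order of the C4 PEP carboxylase gene changed in the same way, and that of NADP-malic enzyme held. Quantile normalization, which gives every column the same distribution, changed the order for all 3 and put NADP-malic enzyme highest at 1-2 DBP. PPDK had the order 10 DAP, 20 DAP, 0-2 DAP, 30 DAP and 1-2 DBP, shared by 200 genes or 0.820%. Its 10 and 20 DAP values led under both scalings, and quantile normalization placed 30 DAP, at 5.69, above 0-2 DAP, at 5.25.

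Differences between stages were taken as log2(TPM + 1) of the later stage minus that of the earlier one, and counts below are of genes for which that difference reached 2-fold. The pseudocount of 1 shrinks the differences of genes with low TPM, which matters for the C4 PEP carboxylase and NADP-malic enzyme genes. In these bulk samples fewer cells of a type and less RNA per cell cannot be told apart.

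**Figure D3:**
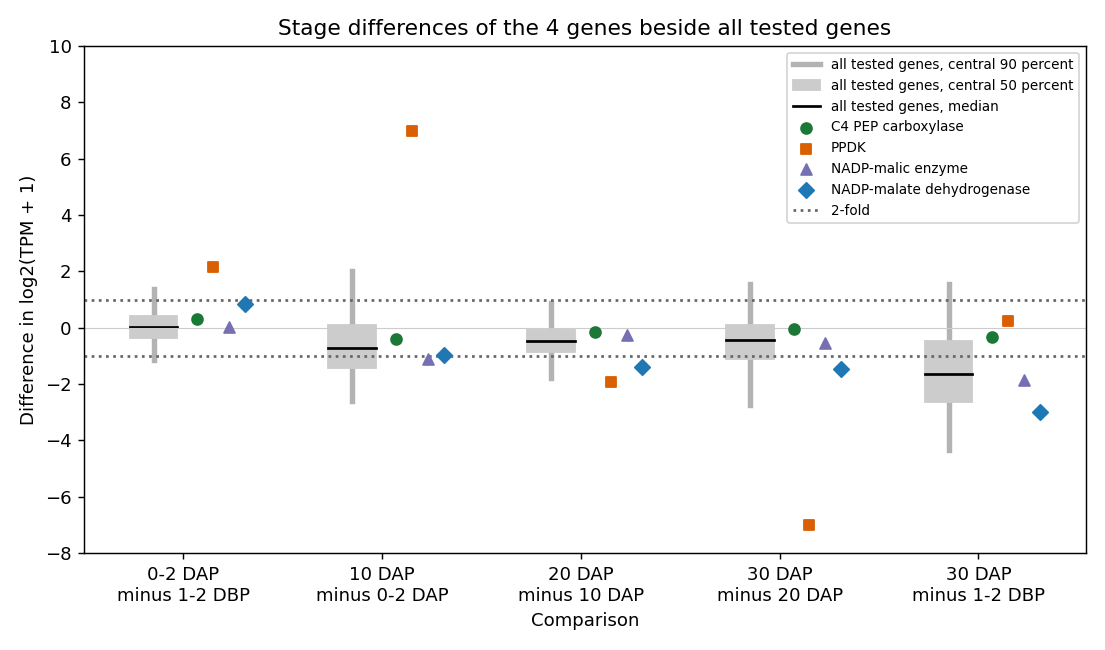
Difference in log2(TPM + 1), later minus earlier stage, of the 4 genes (coloured points) beside all 24404 tested genes (grey bars and lines with the median in black); dotted lines mark 2-fold. PPDK lies outside the central 90% of all genes (grey lines) in each of the 4 consecutive comparisons, at 2.16, 6.98, -1.92 and -7.00, and the other 3 genes lie within it.

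Around pollination PPDK was the gene of the 4 that stood out, with 8.61 TPM at 0-2 DAP against 1.15 TPM at 1-2 DBP. Its log2 difference was 2.16, the 440th highest of 24404 genes. NADP-malate dehydrogenase had 59.9 TPM at 0-2 DAP against 33.3 TPM at 1-2 DBP, a log2 difference of 0.83 that stayed within 2-fold. NADP-malic enzyme, at 2.77 TPM at 0-2 DAP and 2.72 TPM at 1-2 DBP, had a difference of 0.02, close to the median of 0.02 over all genes. The C4 PEP carboxylase gene had 0.539 TPM at 0-2 DAP and 0.255 TPM at 1-2 DBP, a plain ratio of 2.12 at levels under 1 TPM. Of the 3 genes that passed the filter, 1 was at least 2-fold higher, where 8.82% of all genes were, and none was at least 2-fold lower, where 6.50% of all genes were.

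From 0-2 to 10 DAP the PPDK gene was far higher and the other 3 were lower. PPDK had 1216 TPM at 10 DAP against 8.61 TPM at 0-2 DAP, a log2 difference of 6.98 and the 92nd highest of all tested genes. NADP-malic enzyme had 0.767 TPM at 10 DAP against 2.77 TPM at 0-2 DAP, a log2 difference of -1.09. NADP-malate dehydrogenase had 29.9 TPM at 10 DAP against 59.9 TPM at 0-2 DAP, a log2 difference of -0.98 that lay just inside 2-fold. The C4 PEP carboxylase gene had 0.163 TPM at 10 DAP against 0.539 TPM at 0-2 DAP. Of the 3 tested genes 1 was at least 2-fold higher and 1 at least 2-fold lower, where 11.0% and 39.7% of all genes were. The median over all genes was itself -0.72, and against it the remaining difference was -0.38 for NADP-malic enzyme, -0.27 for NADP-malate dehydrogenase and 7.70 for PPDK. NADP-malic enzyme was no longer past 2-fold with a pseudocount of 5, at -0.43, or under median-ratio scaling, at -0.50, or quantile normalization, at -0.65. The accession numbers of the libraries fall into 2 runs that part between these stages, and any technical difference between the runs cannot be told apart from the stage.

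From 10 to 20 DAP all 4 genes had lower deposited values. PPDK had 320.2 TPM at 20 DAP against 1216 TPM at 10 DAP, a log2 difference of -1.92, and 4.25% of all genes had a more negative one. NADP-malate dehydrogenase had 10.7 TPM at 20 DAP against 29.9 TPM at 10 DAP, a log2 difference of -1.40. NADP-malic enzyme, with 0.483 TPM in 20 DAP seed and 0.767 TPM in 10 DAP seed, stayed within 2-fold at -0.25. After quantile normalization its difference was 0.03. The C4 PEP carboxylase gene had 0.0505 TPM at 20 DAP, against 0.163 TPM at 10 DAP. Of the 3 tested genes 2 were at least 2-fold lower, where 18.8% of all genes were, and none was at least 2-fold higher, where 4.23% were. The median over all genes was -0.47. PPDK remained past 2-fold after median-ratio scaling and quantile normalization, whereas NADP-malate dehydrogenase did not, at -0.83 and -0.86.

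From 20 to 30 DAP all 4 genes had lower deposited values again, with the largest difference in PPDK. It had 1.50 TPM at 30 DAP against 320.2 TPM at 20 DAP, a log2 difference of -7.00 and the 97th lowest of 24404 genes. NADP-malate dehydrogenase had 3.27 TPM at 30 DAP against 10.7 TPM at 20 DAP, a log2 difference of -1.45. NADP-malic enzyme had 0.0296 TPM at 30 DAP against 0.483 TPM at 20 DAP, a plain ratio of 0.0612 that the pseudocount reduces to a log2 difference of -0.53. The C4 PEP carboxylase gene had 0.0110 TPM at 30 DAP against 0.0505 TPM at 20 DAP. After quantile normalization its log2 difference was 0.11. Of the 3 tested genes 2 were at least 2-fold lower, where 28.2% of all genes were, and none was at least 2-fold higher, where 9.03% were. The median over all genes was -0.42. Against it the remaining difference was -6.58 for PPDK, -1.03 for NADP-malate dehydrogenase and -0.10 for NADP-malic enzyme. The level of the median gene was 1.07 TPM at 30 DAP against 2.52 TPM at 20 DAP. NADP-malate dehydrogenase was within 2-fold after median-ratio scaling, at -0.92, after quantile normalization, at -0.73, and with a pseudocount of 5, at -0.92. The difference of NADP-malic enzyme was -2.17 with a pseudocount of 0.1.

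Between the ends of the series PPDK was close to where it began, with 1.50 TPM at 30 DAP and 1.15 TPM at 1-2 DBP. Its log2 difference was 0.22 on the deposited values, 1.53 with median-ratio scaling and 1.85 with quantile normalization, so its place relative to 2-fold depends on the scaling. NADP-malate dehydrogenase had 3.27 TPM at 30 DAP against 33.3 TPM at 1-2 DBP, a log2 difference of -3.01, or -0.96 after quantile normalization. NADP-malic enzyme had 0.0296 TPM at 30 DAP against 2.72 TPM at 1-2 DBP, a log2 difference of -1.85, or -0.62 with a pseudocount of 5. The C4 PEP carboxylase gene had 0.0110 TPM at 30 DAP against 0.255 TPM at 1-2 DBP. Of the 3 tested genes 2 were at least 2-fold lower, where 65.2% of all genes were, and none was at least 2-fold higher, where 7.54% were. The median over all genes was -1.62, and against it the remaining difference was 1.85 for PPDK, -1.38 for NADP-malate dehydrogenase and -0.23 for NADP-malic enzyme. For NADP-malic enzyme that remainder was -1.10 with median-ratio scaling and -1.07 with quantile normalization. The ends of the series also lie in different runs of accession numbers, so a technical difference cannot be told apart from the stage.

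PPDK followed the course higher, higher, lower and lower at 2-fold over the 4 consecutive steps, which 144 of 24404 genes or 0.590% followed as deposited. It was on that course after median-ratio scaling and quantile normalization too, with 82 and 86 genes. NADP-malate dehydrogenase was within 2-fold at the first and second step and lower at both later ones, as were 607 genes, and NADP-malic enzyme was lower at the 10 DAP step alone, as were 5036 genes. After either scaling both of these genes were within 2-fold at every consecutive step, as were 37.0% of all genes after median-ratio scaling. The course of NADP-malic enzyme also depends on the pseudocount. With a pseudocount of 0.1 on the deposited values it was past 2-fold lower at the 30 DAP step too, at -2.17. PPDK was 1 of 195 genes that reached 20 TPM in 10 DAP and 20 DAP seed alike and stood there at least 10-fold above every other stage, and it ranked 38th among them at 10 DAP. Its value at 20 DAP was 37.2 times its highest value outside those 2 stages.

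Likeness to each of the 4 genes was measured as the root-mean-square difference of log2(TPM + 1) over the 5 stage columns, after each gene's own mean was taken off, among 12591 genes that reached 20 TPM. The gene most like PPDK was Sobic.010G219300, at a distance of 0.29, with 0.314, 3.47, 415 and 162 TPM from 1-2 DBP to 20 DAP and listed at 0 at 30 DAP. Next came Sobic.007G039870, at 0.34, which peaked at 421 TPM in 10 DAP seed, had 90.2 TPM in 20 DAP seed and was listed at 0 at 30 DAP. Only 7 genes lay within 0.5 of PPDK, against 1501 for NADP-malate dehydrogenase, 4103 for NADP-malic enzyme and 1823 for the C4 PEP carboxylase gene. The pseudocount of 1 flattens genes with low TPM. The C4 PEP carboxylase gene spanned 48.9-fold in plain TPM but 0.607 in log2(TPM + 1), and NADP-malic enzyme 93.6-fold but 1.87. The counts of these genes thus reflect their low level as well as their course. The distance is not scaled for range, so the small count for PPDK reflects its range of 9.15 as well as its course. The genes most like NADP-malate dehydrogenase were Sobic.008G039600, at 0.05, and Sobic.003G389100, at 0.10. Sobic.003G389100 had 39.8, 69.2, 42.4, 13.6 and 4.65 TPM from 1-2 DBP to 30 DAP. The genes most like NADP-malic enzyme were Sobic.001G537800 and Sobic.002G352700, and those most like the C4 PEP carboxylase gene were Sobic.004G158200 and Sobic.002G341300. Both of these pairs stood between 15.6 and 60.1 TPM, far above the enzyme genes they were matched to, since the search held only genes that reached 20 TPM. These matches rest on the pseudocount and do not show a shared course in plain TPM. Sobic.001G537800 went only from 60.1 TPM at 0-2 DAP to 15.6 TPM at 30 DAP, and Sobic.004G158200 from 36.1 to 22.5 TPM. Among the 4 genes themselves NADP-malic enzyme and the C4 PEP carboxylase gene were closest, at 0.56, and PPDK was at least 3.80 from each of the others. NADP-malic enzyme and the C4 PEP carboxylase gene peaked at only 2.77 and 0.539 TPM, where the pseudocount narrows any distance between courses.

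The genes next to each of the 4 in ID order, taken as 2 on each side, were listed as a local comparison. The neighbours of PPDK did not share its course, since all 4 had less than 21 TPM at 10 DAP. Sobic.009G132800 had 75.0, 45.9, 20.5, 15.2 and 19.5 TPM from 1-2 DBP to 30 DAP, and Sobic.009G133000 had 1.98, 0.719, 0.745, 0 and 0.114 TPM. Beside NADP-malate dehydrogenase, Sobic.007G166200 had 8.40, 14.3, 11.9, 5.43 and 0.990 TPM. Like NADP-malate dehydrogenase it was highest at 0-2 DAP and at least 2-fold lower at 20 and at 30 DAP than at the stage before, a course that the other 3 neighbours did not follow. The same ID is also on the list of candidate relatives described next, so the 2 accounts of it are not independent. Beside the C4 PEP carboxylase gene, Sobic.010G160875 had 0.466, 0.991, 0.149 and 0.0415 TPM up to 20 DAP and was listed at 0 at 30 DAP. Both IDs just before NADP-malic enzyme were listed at 0 in every stage but 0-2 DAP, where they had 0.0802 and 0.0363 TPM.

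A further list of 17 IDs was set down from general knowledge as possible relatives and partners of the 4 enzymes. No table used here annotates them, so the enzyme an ID was set down for is unchecked and the values describe the list as written. The 5 IDs set down beside PEP carboxylase summed to 368, 334, 87.2, 60.8 and 31.0 TPM from 1-2 DBP to 30 DAP. That sum exceeded the C4 PEP carboxylase gene between 536 times, at 10 DAP, and 2808 times, at 30 DAP. The 3 IDs set down beside NADP-malic enzyme summed to 283, 460.2, 142, 66.8 and 25.3 TPM over the same stages, between 104 and 855 times the NADP-malic enzyme gene. The largest ratios, 2808 and 855, divide by 0.0110 and 0.0296 TPM at 30 DAP, values that may rest on few reads. The single ID set down beside PPDK had 12.5, 14.8, 2.92, 5.62 and 36.4 TPM, higher at 0-2 DAP than at 1-2 DBP as PPDK was and moving opposite to PPDK at each later step, so that PPDK was 8.40% of the pair's total at 1-2 DBP, 99.8% at 10 DAP and 3.96% at 30 DAP. The single ID set down beside NADP-malate dehydrogenase stayed below it, and NADP-malate dehydrogenase held between 66.3% and 80.7% of the pair's total. The 3 IDs set down as carbonic anhydrase, the enzyme that supplies bicarbonate to PEP carboxylase, summed to 35.8, 26.7, 14.0, 14.3 and 19.2 TPM, and the 3 set down as PEP carboxylase kinase, which phosphorylates PEP carboxylase, to 176, 54.1, 27.5, 17.8 and 83.2 TPM.

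**Figure D4:**
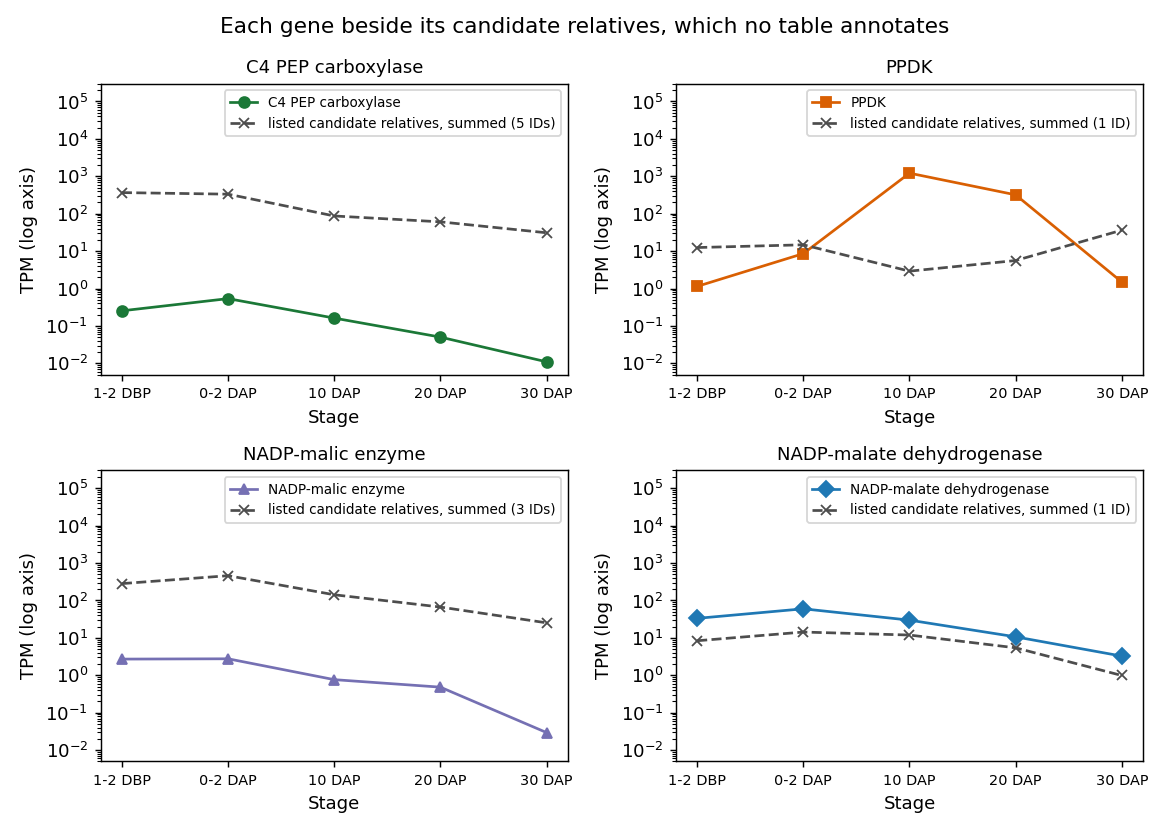
TPM (log axis) of each of the 4 genes (coloured) and the summed TPM of the IDs set down as its candidate relatives, which no table annotates (dashed), by stage. The sums stay above the C4 PEP carboxylase and NADP-malic enzyme genes at all 5 stages, whereas PPDK and its candidate relative change places between 0-2 and 10 DAP and again between 20 and 30 DAP.

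Of the 17 IDs 15 passed the filter. At 0-2 DAP 2 of the 15 were at least 2-fold higher and 3 at least 2-fold lower than at 1-2 DBP, where 8.82% and 6.50% of all genes were. At 10 DAP 1 was higher and 10 were lower than at 0-2 DAP, beside 11.0% and 39.7% of all genes, with a median log2 difference of -1.45 against -0.72 over all genes. At 20 DAP none was higher and 6 were lower than at 10 DAP, beside 4.23% and 18.8% of all genes. At 30 DAP 3 were higher and 7 lower than at 20 DAP, beside 9.03% and 28.2%, and 2 were higher and 12 lower than at 1-2 DBP, beside 7.54% and 65.2%. Over the series 13 of the 17 reached 20 TPM. The most abundant were Sobic.005G042000, with 112, 189.8, 404, 45.9 and 10.4 TPM from 1-2 DBP to 30 DAP, Sobic.003G036000, with 287 TPM at 0-2 DAP, Sobic.003G301800, with 124 TPM at 1-2 DBP, and Sobic.003G280900, with 118 TPM at 0-2 DAP.

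The tissue in each column could be checked only against IDs of the same unannotated kind. The 3 IDs set down as kafirins, the storage proteins of the sorghum endosperm, summed to 0.0334 TPM at 1-2 DBP, where 2 of the 3 were listed at 0, and to 0.304 TPM at 0-2 DAP. In the seed their sum was 88249, 122957 and 67.2 TPM at 10, 20 and 30 DAP. PPDK was high in the same 2 columns as these IDs, but its highest value was at 10 DAP and their highest sum at 20 DAP. The single ID set down for the Rubisco small subunit, a marker of green tissue, had its highest value of 404 TPM at 10 DAP as well. Unlike PPDK, at 1.15 TPM at 1-2 DBP and 8.61 TPM at 0-2 DAP, this ID already had 112 and 189.8 TPM there. The part of tissue composition in the PPDK values was not tested.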

How the data were processed

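The authors deposited 1 table of TPM values, per the file headers, with a single column per stage. How the 14 libraries were combined into 5 columns is not given in the sources used here, nor are the genome build and annotation. The submitters' processing notes list HISAT2, featureCounts version 2.2.0 and DESeq2 without saying what each did, and the labels' protocols list 2 stranded library kits for every sample. Whether libraries of 1 stage were made from different plants is not stated.

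The planned limma tests need 1 value per library and were not run. Instead log2(TPM + 1) was compared between stages for the 24404 genes reaching 1 TPM at some stage, and a difference of at least 2-fold was counted. The counting code was tested on known changes simulated without noise in abundant genes. The scaling code was tested on a column multiplied by a constant. The counting was not tested on changes in genes with low TPM. Other settings tried were a pseudocount of 0.1 or 5, dropping the filter or raising it to 5 TPM, median-ratio scaling over 23243 genes above 0 in all stages (factors 1.88, 1.89, 1.03, 0.673 and 0.411 from 1-2 DBP to 30 DAP) and quantile normalization. A comparison without a pseudocount was added after seeing the data. The named genes were the 4 IDs, the 2 genes most like each, their neighbours in ID order and the 4 most abundant of the 17 listed IDs; the neighbours printed with values were chosen after their values were seen. The 4 IDs and all lists were chosen with earlier results of these data known. Of the table's IDs, 0 occurred in the reference gene table, and no sequence is printed. Python 3.11.15, numpy 2.4.6 and pandas 2.3.3 were used.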

Additional observations from a re-analysis of the deposited data

How the results depend on the processing

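No paired analysis was possible because each stage has a single deposited column, and for the same reason leaving out replicates was not run. Of 100 recomputed log2 differences of the 4 genes, 77 kept their side of 2-fold. Another 10 fell inside it, 13 moved outside it and 0 reversed a call. The filters cannot change a gene's own difference and are not among the 100. Of the 13, 7 came from the run without a pseudocount, which was added after seeing the data. The 100 include the C4 PEP carboxylase gene, which did not pass the filter of 1 TPM. For 10 DAP minus 0-2 DAP, the C4 PEP carboxylase gene was at -1.28 with a pseudocount of 0.1 and -1.73 without one, NADP-malate dehydrogenase at -1.003 and -1.005, and NADP-malic enzyme at -0.43 with a pseudocount of 5, -0.50 with median-ratio scaling and -0.65 with quantile normalization. The number of the genes counted as at least 2-fold lower there was 1 in the report, 2 with a pseudocount of 0.1 or none, and 0 with a pseudocount of 5, with the 5 TPM filter and under either scaling. The 5 TPM filter does so by leaving out NADP-malic enzyme, which peaked at 2.77 TPM. For 20 DAP minus 10 DAP, NADP-malate dehydrogenase was at -0.83 and -0.86 under median-ratio scaling and quantile normalization, leaving 1 gene lower under each, and the C4 PEP carboxylase gene was at -1.69 without a pseudocount. For 30 DAP minus 20 DAP, NADP-malate dehydrogenase was at -0.92 with a pseudocount of 5, -0.92 with median-ratio scaling and -0.73 with quantile normalization, leaving 1 gene lower each time. NADP-malic enzyme was there at -2.17 with a pseudocount of 0.1 and -4.03 without one, and the C4 PEP carboxylase gene at -2.19 without one. For 30 DAP minus 1-2 DBP, PPDK was at 1.53 and 1.85 after median-ratio scaling and quantile normalization, making 1 gene higher under each. There NADP-malate dehydrogenase was at -0.96 after quantile normalization, NADP-malic enzyme at -0.62 with a pseudocount of 5, and the C4 PEP carboxylase gene at -1.68 with a pseudocount of 0.1 and -4.53 without one. The number of genes lower there was 1 with a pseudocount of 5, with the 5 TPM filter and with quantile normalization. Here too the filter left out NADP-malic enzyme. For 0-2 DAP minus 1-2 DBP, the C4 PEP carboxylase gene was at 1.08 without a pseudocount. The summed share of the 4 genes after quantile normalization was 0.00240% at 1-2 DBP and 0.00165% at 30 DAP. By construction a pseudocount acts on low values, and either scaling centres most genes. The 4 consecutive differences of PPDK stayed past 2-fold under every alternative run. Depth is unknown, so values near 0 cannot be separated from sampling.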
